A study of Mus musculus with 10 samples.

Results

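The genes described here are 47 homeobox genes outside the Hox clusters, out of 21938 protein-coding genes that GENCODE M21 places on the assembled mm10 chromosomes. They were chosen by name: 8 Lhx genes and Isl1, 6 Nkx, 5 of the sine oculis class (Six2 to Six6), 6 Irx, 2 Meis, 6 Dlx, 2 Pitx, 2 Emx, 2 Msx, 2 En, 2 Gsx, Gbx2 and 2 Barhl genes. All 47 names were found once in the annotation. For each gene the H3K4me3 ChIP-seq peaks and the ATAC-seq peaks that share at least 1 bp with the 5 kb on either side of its start were counted and measured.

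The study worked with F123 cells, a mouse embryonic stem cell (mESC) line from an F1 cross of castaneus and S129/SvJae mice, grown with LIF on irradiated CF1 fibroblasts and passaged once without feeders before harvest. All 10 samples came from this line under 1 condition, so there is no treated or mutant group. H3K4me3 ChIP-seq and ATAC-seq each had 2 biological replicates, and the authors deposited 1 replicated peak list per assay (33487 H3K4me3 peaks and 179109 ATAC-seq peaks). PLAC-seq and input libraries were not analysed here.

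Homeobox genes encode transcription factors with a homeodomain, a helix-turn-helix fold that binds short AT-rich sites, and those listed here pattern the brain, eye, limb, heart, kidney and pancreas. Their promoters typically lie in CpG islands. In embryonic stem cells, genes of this kind are known for little transcription and for promoters that carry H3K4me3, a mark of gene starts, together with the Polycomb mark H3K27me3, a state called bivalent. H3K27me3 and RNA were not part of the data analysed here.

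RefSeq promoters (GRCm38, the assembly that mm10 is based on) were matched for 37 of the 47 genes. The 250 bases before the RefSeq start are shown for 5 of them, 5′ to 3′ on the strand of the gene, with each CpG dinucleotide in capitals. Barhl2 (minus strand, chr5:106458167-106458416) had the widest H3K4me3 of the 47 genes, and Dlx2 (minus strand, chr2:71546755-71547004) is a gene that H3K4me3 covered from end to end. Gsx2 (plus strand, chr5:75075351-75075600) and Nkx2-9 (minus strand, chr12:56613285-56613534) were among the 5 narrowest with a peak. Lhx4 (minus strand, chr1:155742028-155742277) had no peak near its GENCODE start and is shown at its RefSeq start.
Barhl2: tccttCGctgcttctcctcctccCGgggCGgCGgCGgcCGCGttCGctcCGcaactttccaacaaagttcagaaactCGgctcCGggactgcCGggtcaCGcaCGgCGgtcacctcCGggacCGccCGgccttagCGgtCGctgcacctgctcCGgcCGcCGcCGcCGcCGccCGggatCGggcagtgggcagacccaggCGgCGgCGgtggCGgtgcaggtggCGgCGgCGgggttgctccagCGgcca
Dlx2: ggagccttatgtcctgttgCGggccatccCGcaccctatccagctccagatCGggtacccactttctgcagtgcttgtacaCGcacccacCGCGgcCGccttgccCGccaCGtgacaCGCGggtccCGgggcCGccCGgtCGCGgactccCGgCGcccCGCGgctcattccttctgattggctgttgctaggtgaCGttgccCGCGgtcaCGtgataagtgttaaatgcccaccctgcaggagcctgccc
Gsx2: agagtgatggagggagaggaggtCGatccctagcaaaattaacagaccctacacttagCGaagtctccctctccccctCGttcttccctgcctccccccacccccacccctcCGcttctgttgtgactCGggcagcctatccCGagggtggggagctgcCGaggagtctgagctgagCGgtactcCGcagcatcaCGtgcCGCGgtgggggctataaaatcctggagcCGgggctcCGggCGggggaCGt
Nkx2-9: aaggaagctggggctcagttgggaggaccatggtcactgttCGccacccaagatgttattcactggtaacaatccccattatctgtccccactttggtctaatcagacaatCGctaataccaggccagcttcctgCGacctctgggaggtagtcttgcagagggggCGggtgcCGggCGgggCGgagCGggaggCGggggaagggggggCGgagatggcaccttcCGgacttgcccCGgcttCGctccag
Lhx4: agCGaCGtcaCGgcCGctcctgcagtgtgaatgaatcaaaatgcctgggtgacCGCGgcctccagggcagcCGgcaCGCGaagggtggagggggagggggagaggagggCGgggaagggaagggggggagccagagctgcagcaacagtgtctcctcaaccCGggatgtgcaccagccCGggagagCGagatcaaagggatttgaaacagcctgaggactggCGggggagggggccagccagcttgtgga

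The 5 promoters held 36, 24, 16, 13 and 14 CpG in the order shown, and each of them touched a peak of both assays. The 36 CpG of Barhl2 were the most among the 37 promoters, which had a median of 16 against 10 over 16538 coding promoters. The ratio of observed to expected CpG had a median of 0.68 over the 37 promoters and of 0.56 over the coding promoters. Beside the 11641 promoters of coding genes with an H3K4me3 peak these differences were small or turned, since those had a median of 15 CpG and a ratio of 0.71. The letters GGGCGG, a GC box, were found on either strand in all 5 of these promoters and in 22 of the 37 (59.5%), against 44.5% of the coding promoters and 59.6% of those of marked genes. CCAAT was found in 17 of the 37 (45.9%), against 36.1% and 36.0%. TATAAA, the TATA box, was found in 3 (Gsx2, Lhx3 and Meis2; 8.11%), against 11.9% and 6.23%, and in the Gsx2 line above the match lies near the 3′ end. An AT-rich core that many homeodomains bind, TAATTA, was found in 1 promoter, that of Msx2 (2.70%), against 4.39% and 2.25%. The RefSeq start of Msx2 lies 294 bp downstream of its GENCODE start, and all 250 bases searched lie in an annotated exon. Both strands were searched for each motif, and none of the 4 motifs contains another.

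H3K4me3 marked 46 of the 47 homeobox genes within 5 kb of the start, against 69.3% of all coding genes. ATAC-seq peaks were likewise present at 46 of the 47, against 81.3% of all coding genes. Lhx4, a regulator of pituitary and motor neuron development, was the exception in both lists. The GENCODE start of Lhx4 (chromosome 1, 155751684) lies 9657 bp upstream of the RefSeq start (155742027). Around the RefSeq start there were 2 H3K4me3 peaks with a summed width of 5705 bp and a strongest fold enrichment of 26.8, and 5 ATAC-seq peaks with a summed width of 2932 bp. When every annotated transcript start was used, all 47 genes had both kinds of peak, and the share of coding genes rose to 71.7% for H3K4me3 and 83.4% for ATAC-seq.

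The 46 marked genes together had 133 H3K4me3 peaks, and no peak was shared by windows of different homeobox genes. The number per gene ran from 0 to 5 with a median of 3, against a median of 1 over all coding genes. At least 2 peaks were found at 42 of the 47 genes, against 18.4% of coding genes, and at least 3 at 27, against 4.57%. Besides Lhx4, the genes with fewer than 2 were Dlx1, Lhx6, Six4 and Six5, each with 1 long peak. Barhl2, Isl1 and Lhx8 had the most, with 5 peaks each. The plot of all peaks around the starts shows the mark broken into several stretches. Of the 45 peaks that hold a gene start, 36 were the longest of their window, and 19 had further peaks on both sides. These 2 counts were not made over all coding genes, so they have no background.

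**Figure D1:**
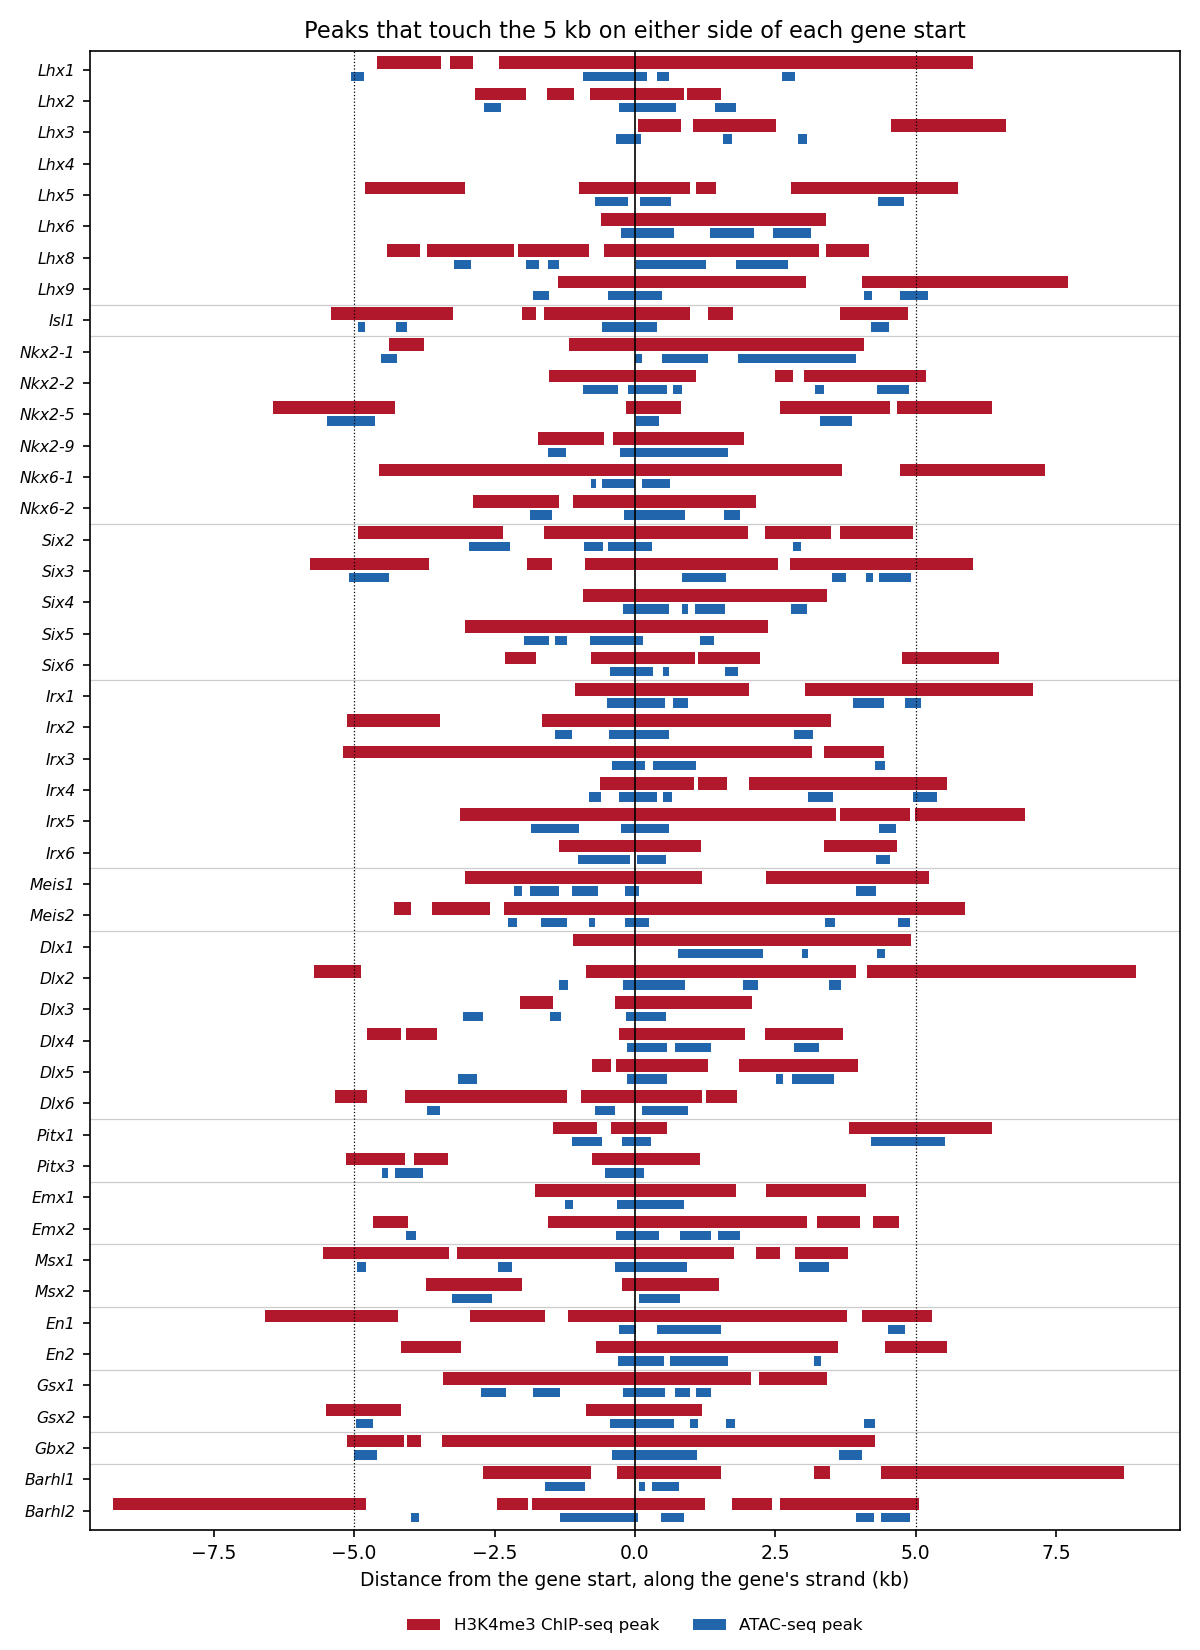
Position of every H3K4me3 peak (red) and ATAC-seq peak (blue) that touches the 5 kb on either side of the start of each homeobox gene, 1 line per gene, with the distance from the start in kb along the strand of the gene; dotted lines mark 5 kb and grey lines separate subfamilies. Only the line of Lhx4 is empty, 45 of the 47 starts lie inside a red bar, and most blue bars lie over red ones.

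The summed width of these peaks had a median of 6462 bp over the 47 genes (quartiles 4350 and 8467 bp), against 1795 bp over all coding genes and 2388 bp over the 15201 coding genes with a peak. The widest single peak of each gene had a median of 3824 bp, against 1666 bp. By summed width, 37 of the 47 genes were in the top 10% of coding genes, where 9.99% of coding genes stood (above 4107 bp). The 10 that were not are Dlx3, Dlx5, Gsx2, Irx6, Lhx2, Lhx4, Lhx6, Msx2, Nkx2-9 and Pitx3. The lists hold 1 value per peak for both replicates, so none of these widths has a spread between replicates and no test was made. In a bulk sample such as this, a mark in fewer cells and less of the mark per cell cannot be told apart.

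The strength of the mark gave the opposite order. The fold enrichment of the strongest peak, a ratio to the caller's background, had a median of 18.2 over the 46 marked genes and of 30.7 over the marked coding genes. None of the 47 homeobox genes was in the top 10% of coding genes by fold enrichment (above 45.8), where 10% of coding genes stood. Below the median of the marked coding genes were 41 of the 46, against 50% by construction. The −log10 q of the same peaks had medians of 161 and 447. The 5 genes above the median were Six4 (37.3), Pitx3 (36.2), Six5 (32.5), Barhl2 (32.0) and En2 (31.5), and the lowest value was 9.27, at Dlx3. Over the 46 genes the Spearman correlation of summed width with fold enrichment was 0.22, and over the 15201 marked coding genes it was 0.46. Both are descriptions, since all points come from the same list.

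**Figure D2:**
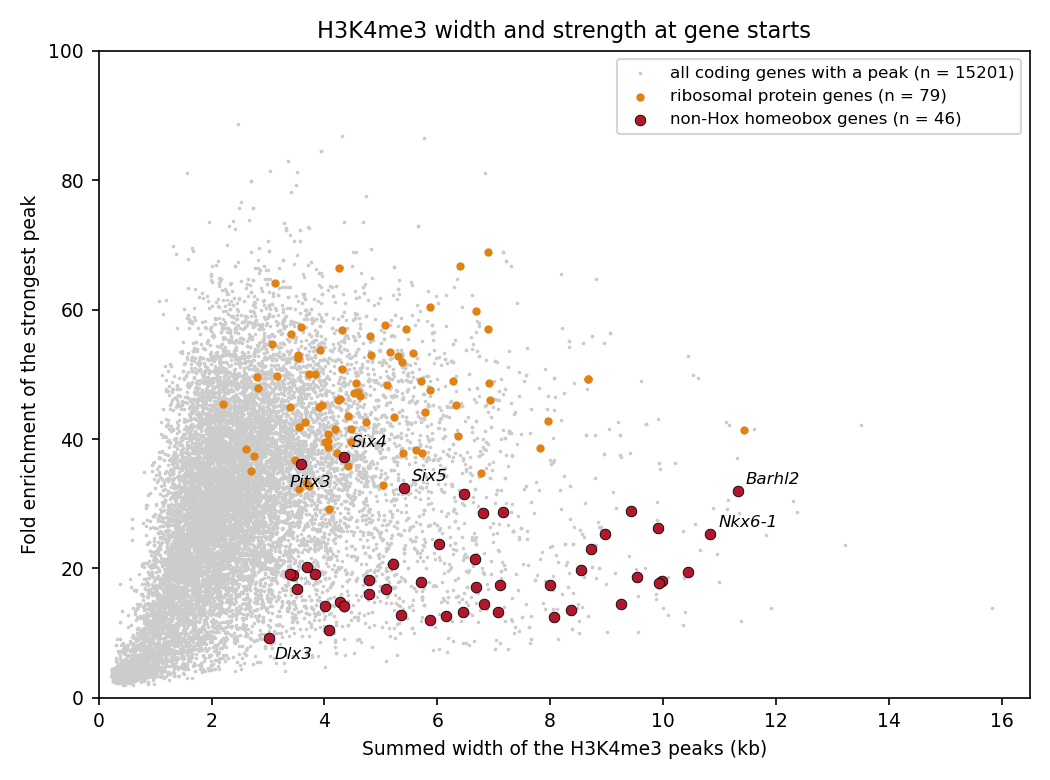
Summed width of the H3K4me3 peaks within 5 kb of the start (kb) against the fold enrichment of the strongest of them, for 15201 coding genes with a peak (grey), 79 ribosomal protein genes (orange) and 46 homeobox genes (red). The red points reach widths of over 10 kb but stay below a fold enrichment of 40, while the ribosomal protein genes have a median of 46.2.

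The strongest peak was the one over the gene start at 37 of the 46 marked genes, against 83.3% of marked coding genes. At the other 9 it lay beside the start. They are Barhl1, Lhx3, Lhx5, Msx2, Nkx2-5, Pitx1, Pitx3, Six3 and Six6. At Nkx2-5, the heart regulator, the peak over the GENCODE start had a fold enrichment of 7.18. That of the strongest, 4664 to 6357 bp downstream, was 14.5. The RefSeq start of Nkx2-5 lies 3444 bp downstream of the GENCODE start, inside another peak with a fold enrichment of 10.0. The RefSeq start of Six3 lies 7226 bp downstream, so the position of the strongest peak depends on the annotation used. At Pitx3, which acts in dopaminergic neurons and the lens, the strongest peak (36.2) lay from -5137 to -4090 bp relative to the start, where the coding gene Gbf1 starts at -4183 bp. The peak over the Pitx3 start itself had 26.7, below the median of the coding genes. At Six6 the strongest peak (20.7) lay 4751 to 6478 bp downstream, and the peak over its start had 10.8. Taking only the peak over the start, the median fold enrichment was 17.9 over 45 homeobox genes and 31.3 over 13408 coding genes.

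H3K4me3 reached further to both sides of the start than at coding genes in general, by the medians. Within the 5 kb on each side it covered a median of 2175 bp upstream and 3422 bp downstream of the 47 starts, against 475 and 1082 bp over all coding genes. More bases were covered downstream than upstream at 33 of the 47 genes (70.2%), against 54.5% of coding genes and 78.6% of marked coding genes. The start itself lay inside a peak at 45 genes, against 61.1%, and the exceptions were Lhx3 and Lhx4. At Lhx3, a pituitary and motor neuron regulator, the nearest peak began 56 bp downstream of the start.

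At 2000 bp upstream of the start, 42.6% of the homeobox genes had an H3K4me3 peak, against 5.42% of all coding genes. At 3000 bp downstream the shares were 61.7% and 7.73%, and at 10000 bp downstream they were 34.0% and 3.91%. At 10000 bp upstream they were 6.38% and 4.26%. The ribosomal protein genes, a highly transcribed group, had 5.06% at 2000 bp upstream and 12.7% at 10000 bp upstream. Downstream, their share was the higher at 2000 bp (92.4% against 59.6%), close at 3000 bp (60.8%) and the lower at 5000 bp (17.7% against 42.6%).

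**Figure D3:**
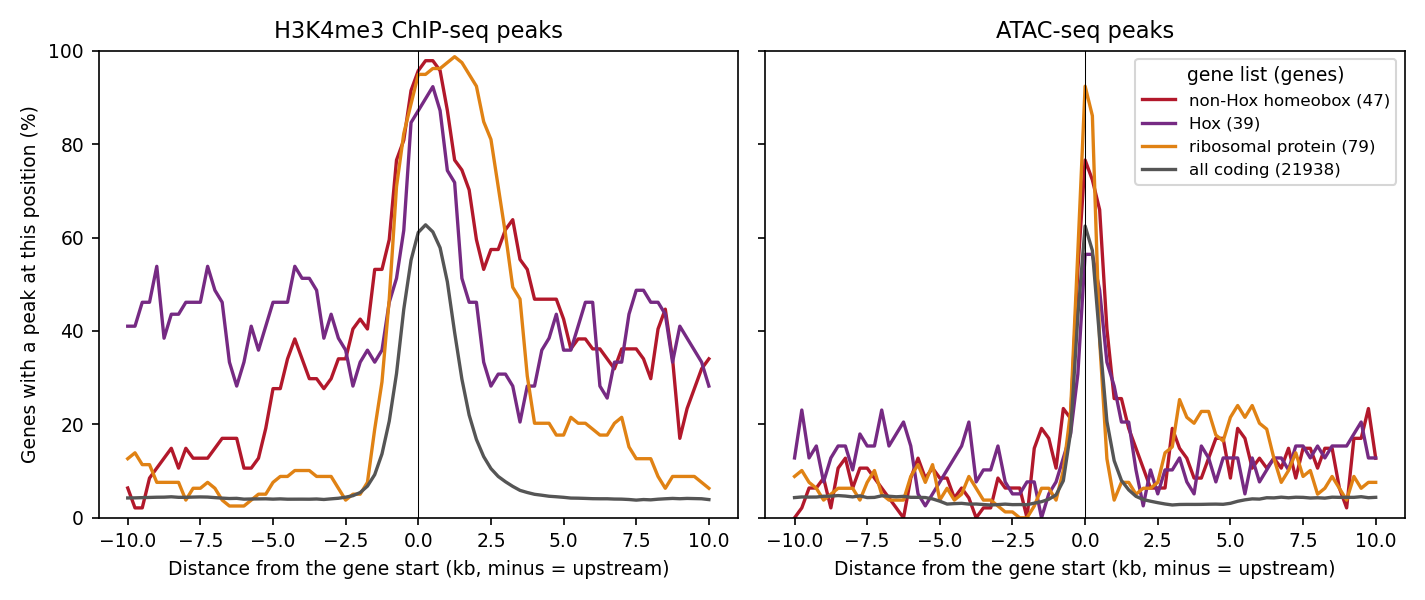
Share of genes (%) with an H3K4me3 peak (left) or an ATAC-seq peak (right) at each position up to 10 kb from the gene start, in steps of 250 bp, for the 47 homeobox genes, 39 Hox genes, 79 ribosomal protein genes and all 21938 coding genes. Within 5 kb of the start the H3K4me3 line of the homeobox genes is above that of all coding genes, and the ATAC-seq lines of all 4 groups are highest at or just after the start.

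These genes are also short, with a median length of 6473 bp against 17425 bp over all coding genes, so a peak of a given width covers more of them. A median of 64.9% of the gene body lay inside H3K4me3 peaks, against 3.55%. At least 50% of the gene was covered at 31 of the 47 genes, against 5.69% of coding genes. The whole gene was covered at 3 of them, against 1.37%. These were Dlx2 (3347 bp long), Gbx2 (3224 bp) and Nkx2-9 (1896 bp). The lowest shares were those of Meis2 (3.53%) and Meis1 (4.22%), whose gene bodies span 202776 and 139169 bp.

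Open chromatin was measured by ATAC-seq, in which the Tn5 transposase cuts accessible DNA. The 47 genes had 166 ATAC-seq peaks, from 0 to 6 per gene with a median of 3, against 1 over all coding genes. At least 3 were found at 43 genes, against 21.9% of coding genes, and the exceptions were Emx1, Msx2 and Nkx2-9 with 2 each and Lhx4 with 0. Meis2 had the most, with 6 peaks, and Barhl2, Gsx1, Gsx2, Irx4, Lhx8, Meis1, Nkx2-2 and Six3 had 5 each. The summed ATAC-seq width had a median of 1803 bp, against 990 bp over all coding genes and 1197 bp over those with an H3K4me3 peak. By this width 24 of the 47 were in the top 10% of coding genes, where 9.98% of coding genes stood (above 1754 bp). Nkx2-1, a regulator of thyroid, lung and ventral forebrain, had the largest value at 3326 bp. Its widest ATAC-seq peak, of 2087 bp, lay 1841 to 3927 bp downstream of the start. The smallest value above 0 was that of Lhx3, at 770 bp. The list has no score, so the strength of an ATAC-seq peak is not known.

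The gene start lay inside an ATAC-seq peak at 36 of the 47 genes (76.6%), against 62.5% of coding genes and 86.1% of marked coding genes. Dlx1, Nkx6-1 and Lhx8 were among the 11 where it did not, although H3K4me3 covered all of these 3 starts. At Nkx6-1 the nearest ATAC-seq peak ended 2 bp upstream of the start. These are GENCODE starts, and the count depends on that choice. Among the 11, the RefSeq starts of Dlx1, Nkx6-1, Msx2 and Nkx2-5 lie 1332, 285, 294 and 3444 bp away. Each of these RefSeq starts lies inside an ATAC-seq peak. Of the 166 ATAC-seq peaks, 157 (94.6%) touched an H3K4me3 peak, against 68.5% of the ATAC-seq peaks in the windows of all coding genes and 77.9% in those of marked coding genes. There were 87 gaps between neighbouring H3K4me3 peaks of a window. An ATAC-seq peak touched 8 of them (9.20%), against 42.3% over all coding genes. The share was 11% for the Hox genes and 43.2% for the ribosomal protein genes. The gaps of the homeobox genes were also shorter, with a median per gene of 680 bp against 986 bp over all coding genes. The bases under ATAC-seq peaks were fewer for the H3K4me3 present, with a median of 30.9% of the H3K4me3 width against 44.3% over marked coding genes. The number of ATAC-seq peaks per kb of H3K4me3 was close to that of the coding genes, with medians of 0.63 and 0.62. The Spearman correlation over the 47 genes between H3K4me3 width and ATAC-seq width was 0.22, and over the marked coding genes it was 0.57.

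Outside the window the number of ATAC-seq peaks was close to that of all coding genes and below that of marked ones, by the medians. Between 5 and 50 kb from the start the homeobox genes had a median of 9 ATAC-seq peaks. It was also 9 over all coding genes, and 11 over marked coding genes. The median of H3K4me3 peaks was 3, against 2 over all coding genes and 2 over marked ones. Only 1 of the 47, Six5, was in the top 10% of coding genes by distal ATAC-seq peaks, with 21, where 8.29% of coding genes stood. Irx3 had the fewest, with 1. The Hox genes had medians of 27 distal ATAC-seq peaks and 24 distal H3K4me3 peaks, in windows that hold other Hox genes.

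The LIM-homeodomain genes are the 8 Lhx genes and Isl1, of which Lhx1 acts in gastrulation and kidney development and Isl1 in motor neurons and the heart. They had 27 H3K4me3 peaks and 29 ATAC-seq peaks. Lhx1 (chromosome 11, start 84525535, minus strand) had the longest single H3K4me3 peak of all 47 genes, 8437 bp wide from 84519513 to 84527949, with a summed width of 9984 bp and a fold enrichment of 18.1. Lhx9 and Lhx8 followed with 8075 and 7991 bp, and Lhx5 with 7079 bp. The values of Lhx3 (4279 bp), Lhx6 (4004 bp) and Lhx2 (3690 bp) were lower. Lhx2, an eye and forebrain regulator, is the gene whose width depended most on the start used, since it rose from 3690 to 13393 bp when all 7 of its annotated starts were taken. Isl1 had 6671 bp in 5 peaks. Fold enrichment in this class was between 12.5 (Lhx9) and 21.5 (Isl1), so no LIM-homeodomain gene reached the median of the marked coding genes.

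Among the NK genes, Nkx6-1, a regulator of pancreatic beta cells and motor neuron progenitors, had the largest summed width (10837 bp in 2 peaks, fold enrichment 25.4). Its main peak ran from 101661303 to 101669553 on chromosome 5 and was 8251 bp wide. Its ATAC-seq width was only 1170 bp, the lowest of the 6 NK genes. The 4 Nkx2 genes had widths of 6820 bp (Nkx2-5), 5879 bp (Nkx2-1), 5099 bp (Nkx2-2) and 3508 bp (Nkx2-9), and Nkx6-2, a neural tube and oligodendrocyte regulator, had 4792 bp. Counting only ATAC-seq peaks that touch the 5 kb, the widest H3K4me3 of the NK genes thus went with their smallest ATAC-seq width. That width was still above the median of 990 bp over all coding genes. Nkx2-9 showed the reverse, with 2251 bp of ATAC-seq in 2 peaks. Over the whole H3K4me3 peaks, with their parts beyond the 5 kb, ATAC-seq peaks covered 64.2% of the bases at Nkx2-9 and 18.7% at Nkx6-1. The share at Nkx2-9 was the largest of the 46 genes. Fold enrichment of the Nkx2 genes was between 12.1 and 16.8.

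The genes of the sine oculis class, Six2 to Six6, split in shape. Six2 and Six3, regulators of nephron progenitors and of the forebrain and eye, had 4 peaks each with summed widths of 8717 and 9249 bp and fold enrichments of 22.9 and 14.5. Six4 and Six5 had 1 peak each, of 4345 and 5403 bp, with fold enrichments of 37.3 and 32.5 and a −log10 q of 581 and 380. Six4 had the highest fold enrichment of all 47 genes, and 67.5% of marked coding genes were below it. Six6, another eye regulator, had 4 peaks with 5218 bp, of which the peak over the start was 1843 bp wide. The coding gene 4930447C04Rik starts 882 bp downstream of the Six6 start on the other strand, so peaks of that window cannot be assigned to either gene alone. ATAC-seq peaks numbered 3 to 5 at each of these 5 genes.

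The Iroquois genes and Meis1 and Meis2 belong to the TALE class, whose homeodomain carries an extra loop. Meis proteins bind DNA together with Pbx and Hox proteins. The 6 Irx genes had the highest median fold enrichment of the 4 subfamilies with at least 6 genes, 27.5 over a range of 17.9 (Irx4) to 28.8 (Irx3). For comparison the medians were 14.8 for Lhx, 16.4 for Nkx and 15.5 for Dlx. Irx5 and Irx3 had summed widths of 9905 and 9433 bp, Irx1 and Irx2 had 7158 and 6803 bp, and Irx4 and Irx6 had 5718 and 3838 bp. Irx3, which has roles in the heart and limb, had an 8351 bp peak that reached beyond 5 kb upstream of its start. Meis2 (9546 bp) and Meis1 (7115 bp) were wide as well, with fold enrichments of 18.8 and 17.4, and had 6 and 5 ATAC-seq peaks.

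Among the Dlx genes, which act in forebrain interneurons and branchial arches, the values covered almost the full range. Dlx2 had 10443 bp in 3 peaks, the third largest width of the 47 genes, and Dlx3, a gene of skin, hair and placenta, had 3017 bp in 2 peaks, the smallest with any peak. Between them were Dlx6 (6149 bp), Dlx1 (6033 bp), Dlx4 (4787 bp) and Dlx5 (4088 bp). Fold enrichment was highest at Dlx1 (23.8) and lowest at Dlx3 (9.27), followed by Dlx5 (10.5) and Dlx6 (12.7). The ATAC-seq widths differed less, from 1260 bp at Dlx3 to 1935 bp at Dlx5.

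The remaining genes came in small subfamilies. Pitx1, which specifies the hindlimb, and Pitx3 had the lowest median width of any subfamily, with 4355 and 3582 bp. Emx1 and Emx2, genes of the developing cortex, had 5364 and 6462 bp at fold enrichments of 12.8 and 13.3. Msx1 and Msx2, which act in craniofacial and tooth development, had 8556 and 3451 bp at nearly equal fold enrichments of 19.7 and 18.9. En1 and En2, genes of the midbrain and hindbrain border, showed the reverse order of width and strength, with 9931 bp at 17.7 for En1 and 6474 bp at 31.5 for En2. Gsx1 and Gsx2, genes of the ventral telencephalon, had 6686 and 3393 bp and 5 ATAC-seq peaks each. Gbx2, which acts in the anterior hindbrain, had 8968 bp at 25.3. Barhl2, a neuronal regulator, had 11321 bp in 5 peaks, and 99.9% of coding genes had a smaller width. The peak over its start (chromosome 5, 106456927 to 106459993) had a fold enrichment of 32.0, and the other 4 had between 3.46 and 8.62. Barhl1, a gene of the inner ear and cerebellum, had 8378 bp at 13.6.

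**Figure D4:**
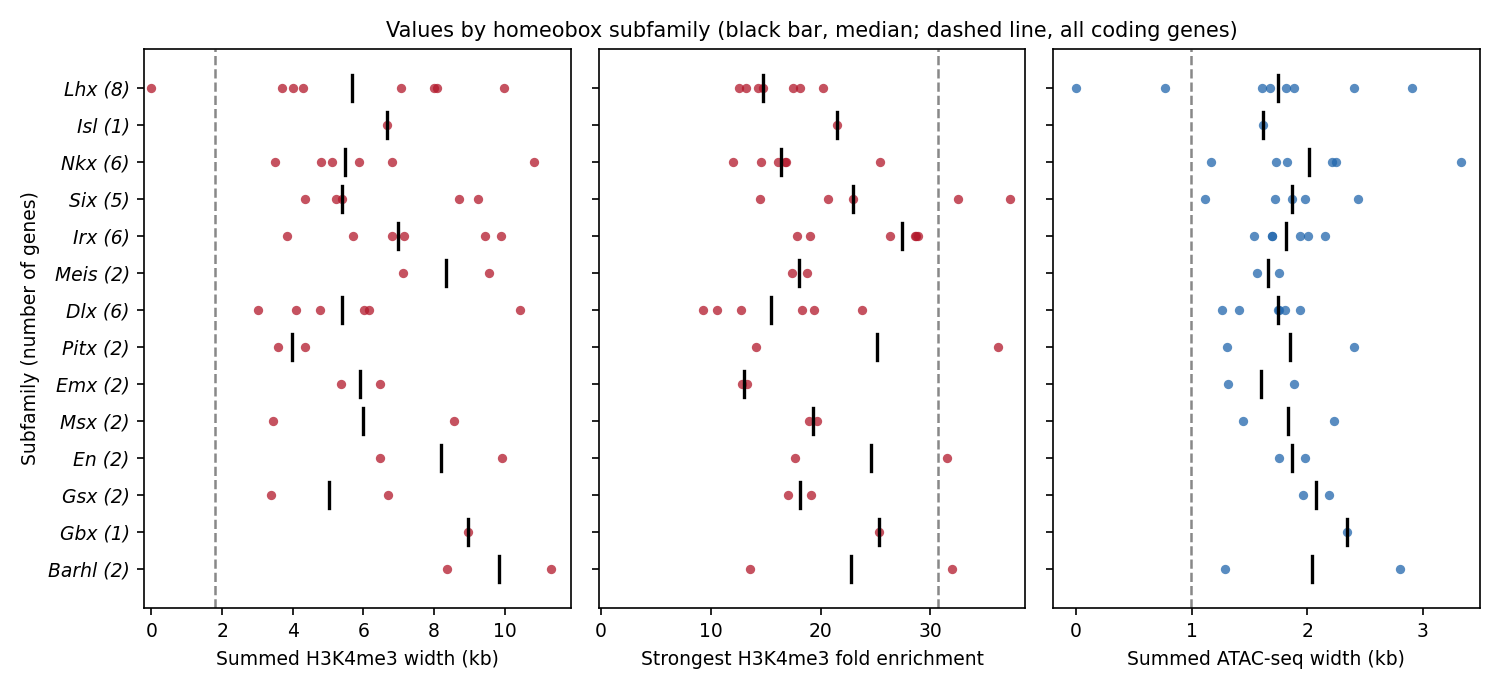
Summed H3K4me3 width (kb), strongest H3K4me3 fold enrichment and summed ATAC-seq width (kb) of each homeobox gene (points) by subfamily, with the median of the subfamily as a black bar and the median of coding genes as a dashed line (for fold enrichment, of coding genes with a peak). All points except Lhx4 lie to the right of the line for H3K4me3 width, and 41 of 46 lie to its left for fold enrichment.

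Every subfamily of at least 2 genes had a median summed width above that of all coding genes, from 3968 bp for Pitx to 9850 bp for Barhl. The spread within a subfamily was of the same order, since Dlx genes alone ran from 3017 to 10443 bp and Nkx genes from 3508 to 10837 bp. With 1 to 8 genes in each and 1 list per assay, differences between subfamilies were not tested.

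Of the 47 genes, 18 lie within 1 Mb of another of them, in 8 clusters. The Dlx genes form 3 convergent pairs. Dlx1 and Dlx2 start 18.6 kb apart on chromosome 2, and 61.6% of the stretch from 5 kb before the first to 5 kb beyond the last start lay inside 6 H3K4me3 peaks. In the same kind of stretch, Dlx6 and Dlx5 (18.8 kb apart, chromosome 6) had 43.9% in 9 peaks and Dlx3 and Dlx4 (26.1 kb, chromosome 11) had 22.6% in 7 peaks. The Dlx1 and Dlx2 pair was thus covered most, with the other pairs of similar length below it.

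Six3 and Six2 (74.7 kb apart, chromosome 17) had 31.3% in 14 peaks, together with 23 ATAC-seq peaks. Nkx2-1 and Nkx2-9, at nearly the same distance (76.4 kb, chromosome 12), had 10.9% in 4 peaks and 10 ATAC-seq peaks. Six6 and Six4 (174 kb, chromosome 12) had 14.6% in 15 peaks, in a stretch that also holds 2 other coding gene starts. The Iroquois clusters are much longer. Irx1, Irx2 and Irx4 span 1297 kb of chromosome 13 with 11 H3K4me3 peaks (1.63% of the stretch) and 55 ATAC-seq peaks, and Irx3, Irx5 and Irx6 span 872 kb of chromosome 8 with 14 H3K4me3 peaks (3.38%) and 61 ATAC-seq peaks. The clustered genes had a median width of 5956 bp and the 29 others one of 6671 bp. Counting only the bases within 5 kb of the start, the order turned, with medians of 5487 and 5403 bp. The share of the gene body covered had medians of 75.4% and 61.4%.

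CpG content of the reference sequence followed the extent of the mark. The 10 kb around the start held a median of 318 CpG at the 47 genes, from 95 at Lhx4 to 517 at Irx3, against 151 over all coding genes. The Spearman correlation between this number and the bases of the window inside H3K4me3 peaks was 0.81 over the 47 genes. It was 0.82 over all coding genes and 0.65 over marked coding genes. With fold enrichment it was 0.24 over the 46 marked homeobox genes and 0.36 over marked coding genes. The H3K4me3 peaks covered 56.0% of the windows and held 83.8% of their CpG, against 17.9% and 50.4% over all coding genes. Pooled over the 47 genes, there were 47.9 CpG per kb inside the peaks, 13.2 in the gaps between them and 10.9 in the rest of the window. The CpG number of the 250 bases before the RefSeq start was less related to the summed width around the GENCODE start. The correlation was 0.14 over 37 genes, against 0.68 over all coding promoters and 0.33 over those of marked genes. These starts are over 1 kb apart at 7 of the 37 genes, so the value partly compares different places. At Lhx4 it pairs 14 CpG with a width of 0.

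**Figure D5:**
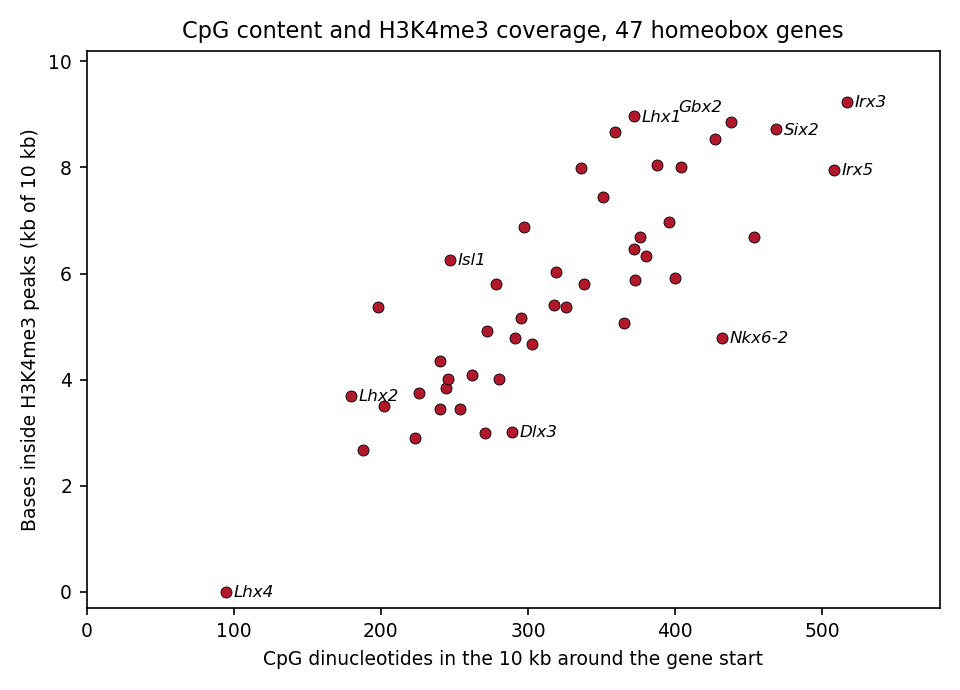
Number of CpG dinucleotides in the 10 kb around the start of each of the 47 homeobox genes (x axis) and the kb of that window inside H3K4me3 peaks (y axis), 1 point per gene. The points rise together (Spearman correlation 0.81) from Lhx4 with 95 CpG and no peak to Irx3 with 517 CpG.

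In a comparison chosen after seeing the data, CpG-rich homeobox genes were set beside other coding genes above the same CpG threshold. The CpG number above that threshold was not matched. Of the 2162 coding genes in the top 10% by CpG number of the window (more than 251), 35 were homeobox genes of the list. These had a median summed width of 6803 bp and a median fold enrichment of 17.9, and the 2127 others had 4064 bp and 35.2. At least 2 H3K4me3 peaks were found at 91.4% of the 35 and at 44.6% of the others. The ATAC-seq widths were nearer to each other, with medians of 1866 and 1744 bp. The part of CpG content in the width was not tested further.

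Of other gene groups, 76 homeobox genes that are neither in the list nor Hox genes had a median summed width of 5169 bp, a median fold enrichment of 18.0 and an ATAC-seq width of 1908 bp. The 39 Hox genes had 6118 bp, 12.2 and 1465 bp, with a median of 4 H3K4me3 peaks. The 44 forkhead (Fox) genes, another family of developmental transcription factors, had 4126 bp, 24.4 and 1802 bp. The 79 ribosomal protein genes had 4468 bp, 46.2 and 1578 bp, with a median of 1 peak. Thus all 4 groups had a median width above the 1795 bp of all coding genes, and all but the ribosomal protein genes had a median fold enrichment below the 30.7 of marked coding genes. No test was made between these lists.

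Other transcripts begin in some of the windows. Annotated noncoding RNAs start within 5 kb of 14 of the 47 starts, among them Dlx4os, Emx2os, Irx3os, Lhx1os, Six3os1 and Crnde (at Irx5). Transcripts that the annotation classes as TEC start in the windows of 3 genes and are not in that count. A coding gene starts in the window of 2, Pitx3 and Six6. The shares over all coding genes were not worked out, so these counts have no background. The RefSeq and GENCODE starts were over 1 kb apart at 7 of the 37 matched genes, from 1220 bp at Meis2 to 9657 bp at Lhx4. At Six3, 7226 bp apart, the summed width was 9249 bp around the GENCODE start and 12017 bp around the RefSeq start, and at Nkx2-2, 7841 bp apart, it was 5099 and 10004 bp.

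Marker genes of the cell line and of the feeder cells were measured in the same way. With 69.3% of all coding genes marked, the presence of a peak tells little here, and the values are given. Of 8 stem cell markers, 7 had an H3K4me3 peak, with widths of 2575 to 8186 bp and fold enrichments of 14.9 (Nanog) to 42.9 (Sox2). Esrrb had none within 5 kb of its annotated start but had 4 ATAC-seq peaks. Of 8 fibroblast markers, 6 had an H3K4me3 peak, with fold enrichments of 3.21 (Col3a1) to 20.4 (Col1a2), and Lum and Postn had none. The feeder cells are fibroblasts, and their part in the peaks at the homeobox genes was not tested.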

How the data were processed

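H3K4me3 was measured by ChIP-seq and open chromatin by ATAC-seq in F123 cells, 2 biological replicates each. The authors ran the ENCODE histone ChIP-seq pipeline at default parameters and deposited 1 list of replicated peaks, with a fold enrichment (a ratio), −log10 values of p and q, a display score that was not used, and a summit. The aligner and threshold are not given in the sources used here. The submitters' processing notes name mm10. For ATAC-seq the authors aligned reads with Bowtie 1.1.2, called peaks with MACS2 2.1.1.20160309, intersected them with bedtools 2.27.1 and deposited pooled peaks found in both replicates, as positions only. Neither list holds read counts, so depth is unknown and no test was made. Exact 95% binomial intervals of the shares of genes served only to compare processing alternatives.

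Genes were taken from GENCODE M21 (mm10, chromosomes 1 to 19, X and Y), and the gene start was the 5′ end of the gene. A peak belonged to a gene when it shared at least 1 bp with the 5 kb on either side. Summed width is that of the whole peaks, and fold enrichment is that of the strongest. The top 10% was taken over all 21938 coding genes, the 47 included. Clusters join genes with starts within 1 Mb. Promoters came from RefSeq (GRCm38). The homeobox genes and the other gene lists were chosen with earlier results of these data known. Every member is given by subfamily, and the genes with extreme values and those in clusters are named. The counting was tested on simulated data, where all 500 planted genes were recovered, and bedtools 2.31.1 gave equal counts for all 21938 genes. Tables and correlations were handled with pandas 2.3.3 and numpy 2.4.6 in Python 3.11.15. The binomial intervals came from scipy 1.17.1 and plots from matplotlib 3.10.9. The alternatives were other windows, transcript starts, backgrounds, overlap rules, peak thresholds, clipped widths, distal ranges, cluster distances and promoter lengths.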

Additional observations from a re-analysis of the deposited data

How the results depend on the processing

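Of 99 alternative values, 16 could not differ by construction, since no homeobox genes share a peak, no ATAC-seq peaks overlap and all 47 genes are autosomal. Of the other 83, 68 stayed close to the reported values (shares within the exact 95% binomial interval, other values within 1.5 times), 15 moved and 0 turned the direction against the coding genes. Distal ATAC-seq peaks had no direction to turn, with a median of 10 per 100 kb in both groups. The median summed H3K4me3 width stayed above that of the background in all 11 alternatives that could move it (3581 to 8535 bp). The median fold enrichment stayed below its background in all 9 counted alike (17.8 to 18.8). Dropping weak H3K4me3 peaks could move only the background there, since every marked homeobox gene kept its strongest peak. It likewise could not change the share of homeobox genes with an H3K4me3 peak, and these values are counted among the 68. With 1 kb on either side of the start, the median H3K4me3 width was 3581 bp (background 1596 bp), the ATAC-seq width 1080 bp (773 bp), and the shares of homeobox genes in the top 10% were 55.3% for H3K4me3 and 17.0% for ATAC-seq. With 2 kb they were 4088 bp (1657 bp), 63.8% and 31.9%, for the H3K4me3 width and these shares. With 10 kb, 100% had an H3K4me3 peak (72.3% of coding genes) and 100% an ATAC-seq peak (87.5%), with a median of 6 ATAC-seq peaks (2). With all transcript starts the shares were 100% (71.7%) and 100% (83.4%), and 34.0% were in the top 10% by ATAC-seq width. Among the 45 genes with no other coding gene start within 5 kb the last share was 66.7%. Within 100 kb, 10 genes were in clusters. Narrower windows hold fewer peaks by construction, and the cause of the other changes was not tested.

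The 2 backgrounds added after seeing the data were the coding genes with an H3K4me3 peak and those rich in CpG. No paired analysis was possible because the replicates of an assay share 1 deposited list, and leaving out a replicate was not possible for the same reason. Depth is unknown, so a window with no peak does not show that the mark is absent. The peak borders come from the peak caller, and a stretch split by a gap counts as more peaks at the same width. The fold enrichment compares peaks within 1 list only.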
